A study of Homo sapiens with 6 samples.

Results

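The bone morphogenetic protein (BMP) antagonists NOG, GREM1, CHRDL1, BAMBI, SMOC1 and SMOC2 were examined in ARPE-19, a human cell line derived from retinal pigment epithelium, after exposure to FAC, the usual abbreviation in iron research of ferric ammonium citrate. The 6 genes were taken by the symbols of the platform annotation. Each had 1 named probe, and together they made up 6 of 14884 genes tested. The treated group held 3 cultures given 250 µM FAC for 2 days, and the untreated group held 3 cultures given vehicle for the same 2 days. All 6 cultures had been grown to confluence, kept at low serum to differentiate and moved to serum-free medium for the experiment. They are described as biological replicates of 1 line, and what separated them is not stated, so the p-values measure the spread between these cultures only. RNA of each culture was hybridised to 1 array.

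BMPs are secreted ligands that bring together type I and type II serine/threonine kinase receptors, which phosphorylate SMAD1, SMAD5 and SMAD9. These enter the nucleus with SMAD4 and induce genes that include the pathway's own inhibitors. Antagonists act at several levels: noggin, gremlin and the chordin-like proteins bind ligands outside the cell, BAMBI is a membrane protein that resembles a type I receptor without its kinase domain, and SMOC proteins are secreted matrix proteins. In the eye BMPs and their antagonists pattern the optic vesicle and the dorsoventral axis of the retina, and in the liver BMP6 and BMP2 relay iron status to the hepcidin gene HAMP.

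None of the 6 antagonist genes passed the test for a difference between FAC-treated and untreated cells (limma, adjusted p under 0.05 over all genes tested, where 3.73% of genes passed). At an unadjusted p under 0.05 there were 2 of the 6, NOG and SMOC2, where 17.2% of all genes had such a p. The difference closest to the threshold was that of NOG, 0.58 ± 0.16 (SE) on the log2 scale, FAC minus untreated. GREM1, BAMBI and SMOC1 differed by less than 0.05 on that scale. The median difference of the 6 genes was 0.04, against -0.0041 over all genes tested. The groups did not overlap in 3 of the 6 genes, where the same held for 23.4% of all genes: FAC was above untreated on every array in 2 of them (10.4% of all genes) and below in 1 (13% of all genes). Levels below are log2 intensities of a gene's probe, and differences are FAC minus untreated with limma's SE and 95% interval.

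The medians of the 6 arrays over all probes lay between 6.03 and 6.09, and Pearson's r between any pair of arrays was 0.991 to 0.995 across the table. Of 12 measured markers of retinal pigment epithelium none passed the test. OTX2, a transcription factor of that tissue, averaged 11.04 ± 0.06 in FAC-treated and 11.10 ± 0.10 in untreated cells (SD, n = 3 each), at percentile 97.7 of all genes by mean level, while the visual cycle gene RPE65 stood at percentile 22.6. The summed linear intensity of the 12 markers ran from 6362 to 6475 on FAC arrays and from 6282 to 7448 on untreated arrays. Among markers of other cells, LUM of 2 measured fibroblast genes and CSF1R of 6 blood and endothelial genes fell, and none of 6 neural genes passed. Untreated replicate 2 stood apart in the pigment gene TYRP1, with 9.48 against 10.45 and 10.28 in untreated replicates 1 and 3. In TYR, the tyrosinase gene, it measured 6.88 against 7.97 and 7.86. Both genes were picked out of the 12 markers after the values were seen, and the other markers were mixed. Untreated replicate 2 was the highest untreated array in PMEL (7.17 against 7.13 and 6.90), BEST1 and KRT18. It was the lowest in RPE65, OTX2 and LRAT, among others. Of the 555 genes that passed, untreated replicate 2 was the untreated array nearest the FAC mean in 47.7%, untreated replicate 1 in 33.3% and untreated replicate 3 in 18.9%. Over all probes it did not stand out. The mean r with the other untreated arrays was 0.99421, 0.99425 and 0.99426 for untreated replicates 1, 2 and 3. Their mean r with the FAC arrays was 0.99317, 0.99324 and 0.99268.

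NOG encodes noggin, a secreted protein that binds BMP2, BMP4 and GDF5 and keeps them from their receptors. Its level was 8.56, 8.58 and 8.60 in FAC replicates 1, 2 and 3, against 7.79, 8.43 and 7.79 in untreated replicates 1, 2 and 3. The 3 FAC arrays lay within 0.04 of each other, and untreated replicate 2 lay close under them while the other two untreated arrays were far lower. The groups did not overlap, with a gap of 0.13. The means were 8.58 ± 0.02 with FAC and 8.005 ± 0.37 without (SD, n = 3 each), a difference of 0.58 (95% interval 0.21 to 0.95, a fold of 1.49 with an interval of 1.16 to 1.93, limma adjusted p = 0.104). By SD among untreated arrays NOG stood at percentile 99.6 of all genes, and by SD among FAC arrays at percentile 7.2. NOG was the 1 antagonist of the 6 whose untreated replicate 2 departed so far from the others: it lay 0.64 above the mean of untreated replicates 1 and 3, while in the other 5 genes this departure was between -0.11 and -0.001.

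Without untreated replicate 2 the NOG difference was 0.79 ± 0.06 (SE), a fold of 1.73, and passed the test (limma adjusted p = 0.00338). Without untreated replicate 1 it was 0.47 (adjusted p = 0.239), and without untreated replicate 3 it was 0.47 (adjusted p = 0.273). Leaving out a FAC array gave 0.57 to 0.59. With all 6 arrays kept, NOG also passed under a variance prior that follows intensity and is estimated robustly (0.58, adjusted p = 0.027), so both this 1 array and the choice of prior moved NOG across the threshold. The same array was the one with low TYR and TYRP1, and the part of this in the NOG value was not tested. Since the arrays measured RNA of whole cultures, more cells with NOG RNA and more NOG RNA per cell cannot be told apart.

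**Figure D1:**
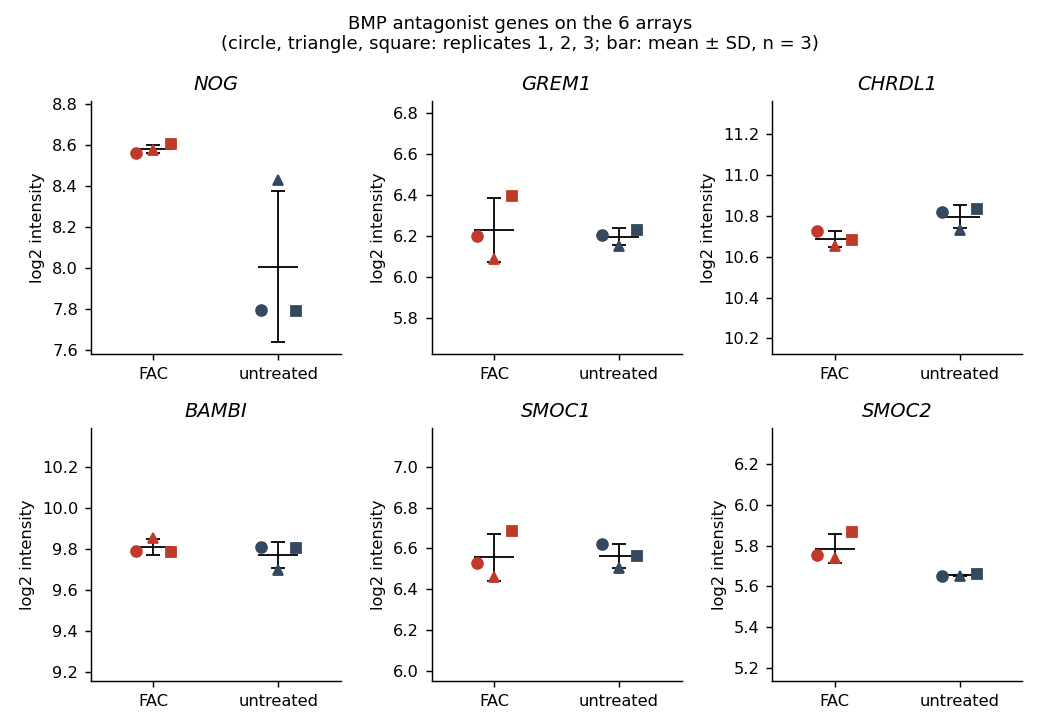
Log2 intensity (vertical axis, the same span in each panel) of the 6 BMP antagonist genes on 3 FAC arrays (red) and 3 untreated arrays (blue-grey), with group mean ± SD. NOG had 3 FAC values between 8.56 and 8.60 and a wide untreated group whose replicate 2 measured 8.43, and the other 5 genes spanned between 0.16 and 0.31 over all arrays.

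**Figure D2:**
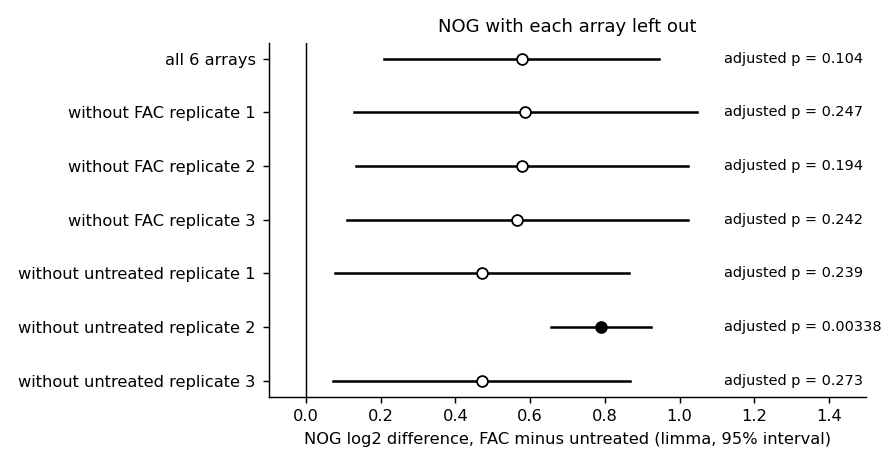
Difference in NOG, FAC minus untreated on the log2 scale (horizontal axis, points with 95% intervals from limma), with all 6 arrays and with each array left out. The filled point, without untreated replicate 2, is the 1 fit of the 7 shown with an adjusted p under 0.05, and all 7 intervals lie above 0.

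GREM1 encodes gremlin 1, a secreted antagonist of the DAN family that binds BMP2 and BMP4. It measured 6.20, 6.09 and 6.40 in FAC replicates 1, 2 and 3, against 6.21, 6.15 and 6.23 in untreated replicates 1, 2 and 3. The FAC arrays held both the lowest and the highest of the 6 values, and the groups overlapped. The difference was 0.03 ± 0.08 (SE, 95% interval -0.16 to 0.22, limma adjusted p = 0.881), an interval of 0.897 to 1.17 as a fold of probe intensity. By mean level GREM1 stood at percentile 31.5 of all genes, and the table gives no detection calls, so how far this signal lies above background is unknown.

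CHRDL1 encodes chordin-like 1, a secreted BMP4 antagonist known from the developing retina and, through mutations, from X-linked megalocornea. Its level was 10.73, 10.65 and 10.68 in FAC replicates 1, 2 and 3, against 10.82, 10.73 and 10.84 in untreated replicates 1, 2 and 3. All FAC arrays lay below all untreated arrays, but the highest FAC and the lowest untreated value were only 0.0032 apart. The difference was -0.11 ± 0.06 (SE, 95% interval -0.24 to 0.02, limma adjusted p = 0.379). At percentile 96.6 by mean level, CHRDL1 was among the brighter probes of the arrays.

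BAMBI encodes the membrane pseudoreceptor that limits BMP and TGF-beta signalling and is itself induced by both. It measured 9.79, 9.85 and 9.79 in FAC replicates 1, 2 and 3, against 9.81, 9.70 and 9.80 in untreated replicates 1, 2 and 3. All arrays but untreated replicate 2 lay within 0.07 of each other, and the groups overlapped. The difference was 0.04 ± 0.06 (SE, 95% interval -0.09 to 0.17, limma adjusted p = 0.788), so a fold above 1.13 or below 0.938 lies outside the interval. SMAD6, another inhibitor that BMPs induce, fell by 0.91 on the log2 scale in the same cells (± 0.13 SE, limma adjusted p = 0.0137).

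The bases before the start of BAMBI and of SMAD6 are shown because both genes are known BMP-induced inhibitors while their values here were unlike. The pair was chosen after these values were seen. The difference between the values was not tested, and neither was any link of the letters below to them. They come from RefSeq, build GRCh38.p14, plus strand, 5′ to 3′, ending at the base before the annotated start. BAMBI is at chr10:28677271-28677520 and SMAD6 at chr15:66701986-66702235. Capitals mark GGCGCC and GTCTAGAC, each the same on both strands, and CAGAC or its reverse complement GTCTG, letters that SMAD proteins are known to bind.
BAMBI: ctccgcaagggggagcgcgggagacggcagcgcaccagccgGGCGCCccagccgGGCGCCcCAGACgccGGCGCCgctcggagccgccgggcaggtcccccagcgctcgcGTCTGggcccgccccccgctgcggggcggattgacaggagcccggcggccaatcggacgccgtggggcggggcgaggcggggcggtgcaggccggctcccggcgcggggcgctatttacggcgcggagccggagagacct
SMAD6: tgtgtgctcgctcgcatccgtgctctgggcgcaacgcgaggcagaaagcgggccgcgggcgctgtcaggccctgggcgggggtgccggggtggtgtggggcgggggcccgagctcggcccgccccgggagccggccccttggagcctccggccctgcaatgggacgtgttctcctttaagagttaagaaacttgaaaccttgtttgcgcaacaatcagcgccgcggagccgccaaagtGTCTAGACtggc
The BAMBI window held 3 copies of GGCGCC and 2 of CAGAC, counted on both strands, with no base in more than 1 match. The SMAD6 window held 1 copy of GTCTAGAC, beginning 12 bases before the start, and neither of the other motifs. Over 35116 RefSeq windows of the same length, 16.4% held GGCGCC, 38% held CAGAC and 0.182% held GTCTAGAC. The BAMBI window was 81.2% G or C and the SMAD6 window 68%. Of the other antagonist genes with a window, 1 of the 2 GREM1 windows held 2 copies of GGCGCC, both GREM1 windows and that of SMOC2 held CAGAC, and those of CHRDL1 and SMOC1 held none of the 3 motifs. The set of windows used here held none for NOG. A match of letters is a description and shows no binding.

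SMOC1 and SMOC2 encode closely related calcium-binding matrix proteins of the SPARC family. SMOC1 is known from a human syndrome of absent or small eyes with limb anomalies, and its frog relative blocks BMP signalling. SMOC1 measured 6.53, 6.46 and 6.68 in FAC replicates 1, 2 and 3, against 6.62, 6.50 and 6.56 in untreated replicates 1, 2 and 3. The FAC arrays again held both the lowest and the highest value. The difference was -0.0056 ± 0.07 (SE, 95% interval -0.17 to 0.16, limma adjusted p = 0.976).

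SMOC2 measured 5.75, 5.74 and 5.86 in FAC replicates 1, 2 and 3, against 5.65, 5.65 and 5.66 in untreated replicates 1, 2 and 3. The groups did not overlap, with FAC 0.08 above, and the untreated arrays lay within 0.0083 of each other. By SD among untreated arrays SMOC2 stood at percentile 0.28 of all genes. The difference of 0.13 ± 0.06 (SE, 95% interval 0.0030 to 0.26, a fold of 1.10) had an unadjusted p of 0.046 in limma's fit and did not pass (adjusted p = 0.279). The lower end of the interval stayed positive with averaged probes (0.0030) and without FAC replicate 2 (0.0006). It was negative in the other alternative fits that held SMOC2, such as quantile normalization (-0.0015) and the variance prior that follows intensity (-0.047). SMOC2 stood at percentile 23.1 by mean level, with signal over background unknown. The difference between the SMOC2 and SMOC1 values was not tested. FAC replicate 3 was the highest of the 6 arrays in NOG, GREM1, SMOC1 and SMOC2, and its median over all probes, 6.09, was also the highest. For NOG, CHRDL1 and SMOC2, whose groups did not overlap, an exact 2-sided permutation test of the difference in means gave p = 0.1, the smallest that 3 arrays against 3 can give. Groups without overlap always give this value, so it adds nothing to their separation.

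Of 14 other measured secreted antagonists 1 rose and none fell, where 1.88% of all genes rose and 1.85% fell. The gene that rose was TWSG1, encoding twisted gastrulation, which joins chordin and BMPs in a complex. It measured 10.44, 10.38 and 10.37 in FAC replicates 1, 2 and 3, against 10.13, 10.18 and 10.16 in untreated replicates 1, 2 and 3. This was a difference of 0.24 ± 0.05 (SE, a fold of 1.18, limma adjusted p = 0.0465), close to the threshold, and it no longer passed in 9 of 14 alternative fits. These were the fits without any 1 of the 6 arrays (adjusted p between 0.079 and 0.175), with arrays centred on their medians (adjusted p = 0.083), with every probe of the table tested (adjusted p = 0.159) and with the replicate number as a block (adjusted p = 0.144). The follistatin gene FST, whose product binds activins and some BMPs, measured 11.53, 11.61 and 11.40 with FAC, against 11.81, 11.68 and 11.83 without (-0.26 ± 0.07 SE, limma adjusted p = 0.111). The median difference of these 14 genes was -0.02. CER1, DAND5, NBL1 and KCP have no probe named for them alone and were not analysed here.

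Of 13 measured BMP ligand genes 3 rose and 1 fell, where 1.88% of all genes rose and 1.85% fell. Those that rose, BMP2, BMP4 and GDF5, encode ligands that noggin binds. BMP2 measured 7.88, 7.77 and 7.65 with FAC, against 6.44, 6.34 and 6.64 without (1.29 ± 0.09 SE, limma adjusted p = 0.000992). BMP4 measured 10.84, 10.89 and 10.78 with FAC, against 10.29, 10.05 and 10.18 without (0.66 ± 0.07 SE, a fold of 1.58, limma adjusted p = 0.00474). In both ligand genes untreated replicate 2 was the lowest of all arrays, whereas in NOG it was the highest untreated array.

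GDF5 measured 8.46, 8.40 and 8.40 with FAC, against 7.62, 7.80 and 7.64 without (0.73 ± 0.06 SE, a fold of 1.66, limma adjusted p = 0.00194). Here untreated replicate 2 was the highest untreated array, as in NOG, but remained far below the FAC arrays. A dimmer second probe of GDF5 gave 0.22 ± 0.08 (SE, limma adjusted p = 0.351 over all probes). BMP6 was the ligand gene that fell (-0.42 ± 0.08 SE, limma adjusted p = 0.0329), and its call was lost in 7 of 14 alternative fits, among them those without any 1 array other than untreated replicate 2 (adjusted p between 0.0804 and 0.132). The median difference of the 13 ligand genes was 0.05, and the differences between the ligand genes and NOG were not tested.

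**Figure D3:**
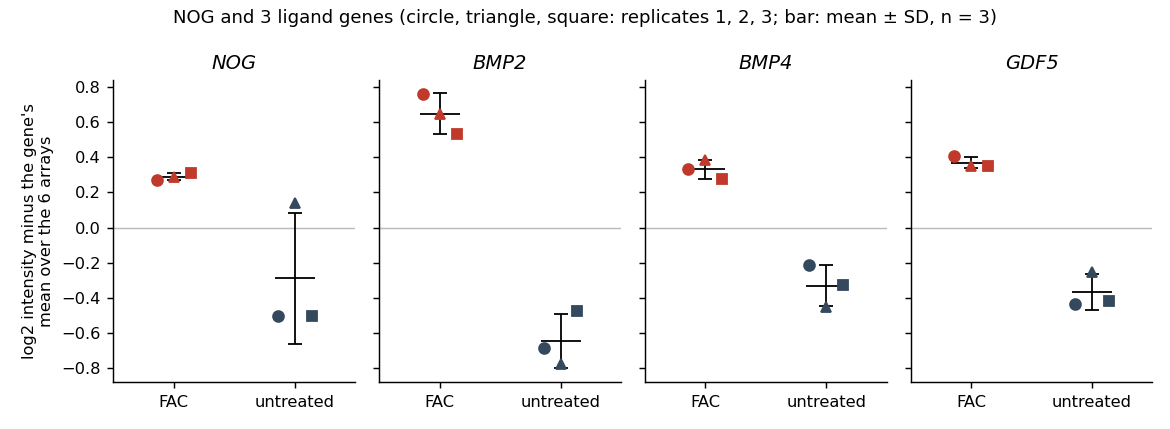
Log2 intensity minus each gene's own mean over the 6 arrays (vertical axis) for NOG and the ligand genes BMP2, BMP4 and GDF5 on 3 FAC arrays (red) and 3 untreated arrays (blue-grey), with group mean ± SD. The triangle among the untreated arrays, replicate 2, is near the FAC values in NOG alone of the 4 genes.

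Downstream of the ligands, none of 4 measured receptors and co-receptors passed (median difference 0.03). The hemojuvelin gene HJV, a BMP co-receptor of iron sensing, had the smallest p among them (0.17 ± 0.06 SE, limma adjusted p = 0.237), followed by ENG, the endoglin gene (0.07 ± 0.08 SE, adjusted p = 0.697). HJV stood at percentile 14.8 of all genes by mean level, with signal over background unknown. Of 10 measured SMADs and intracellular inhibitors 4 fell and none rose, where 1.85% of all genes fell and 1.88% rose. Those that fell were SMAD6, the transducer gene SMAD9 (-0.61 ± 0.08 SE), the inhibitor gene SMAD7 (-0.59 ± 0.07 SE) and the corepressor gene SKIL (-0.40 ± 0.06 SE). Their limma adjusted p lay between 0.00714 and 0.0137. SMAD7 passed in all 14 alternative fits. The calls of SMAD6, SMAD9 and SKIL were lost in 4, 3 and 4 of them (adjusted p between 0.0514 and 0.0699). All of these genes lost it without untreated replicate 3, without FAC replicate 1 and with every probe of the table tested, SMAD6 also without FAC replicate 3, and SKIL also with the replicate number as a block. The median difference of these 10 genes was -0.30, and 2 of them differed upward. The transducer gene SMAD1 lay higher with FAC on every array (0.35 ± 0.08 SE, limma adjusted p = 0.0555), and SMAD5 lay lower (-0.32 ± 0.08 SE, adjusted p = 0.0664). Neither passed. Of 13 measured BMP target genes SMAD6 and SMAD7, which also stand among those 10, fell and the other 11 did not pass, with a median of -0.0024. The classical targets ID1, ID2 and ID3, and the receptor genes BMPR1A, BMPR1B and BMPR2, have no probe named for them alone and were not analysed here. The same holds for ID4 and, among receptors and co-receptors, for ACVR1, ACVR2A, ACVR2B, RGMA, RGMB and TGFBR3.

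**Figure D4:**
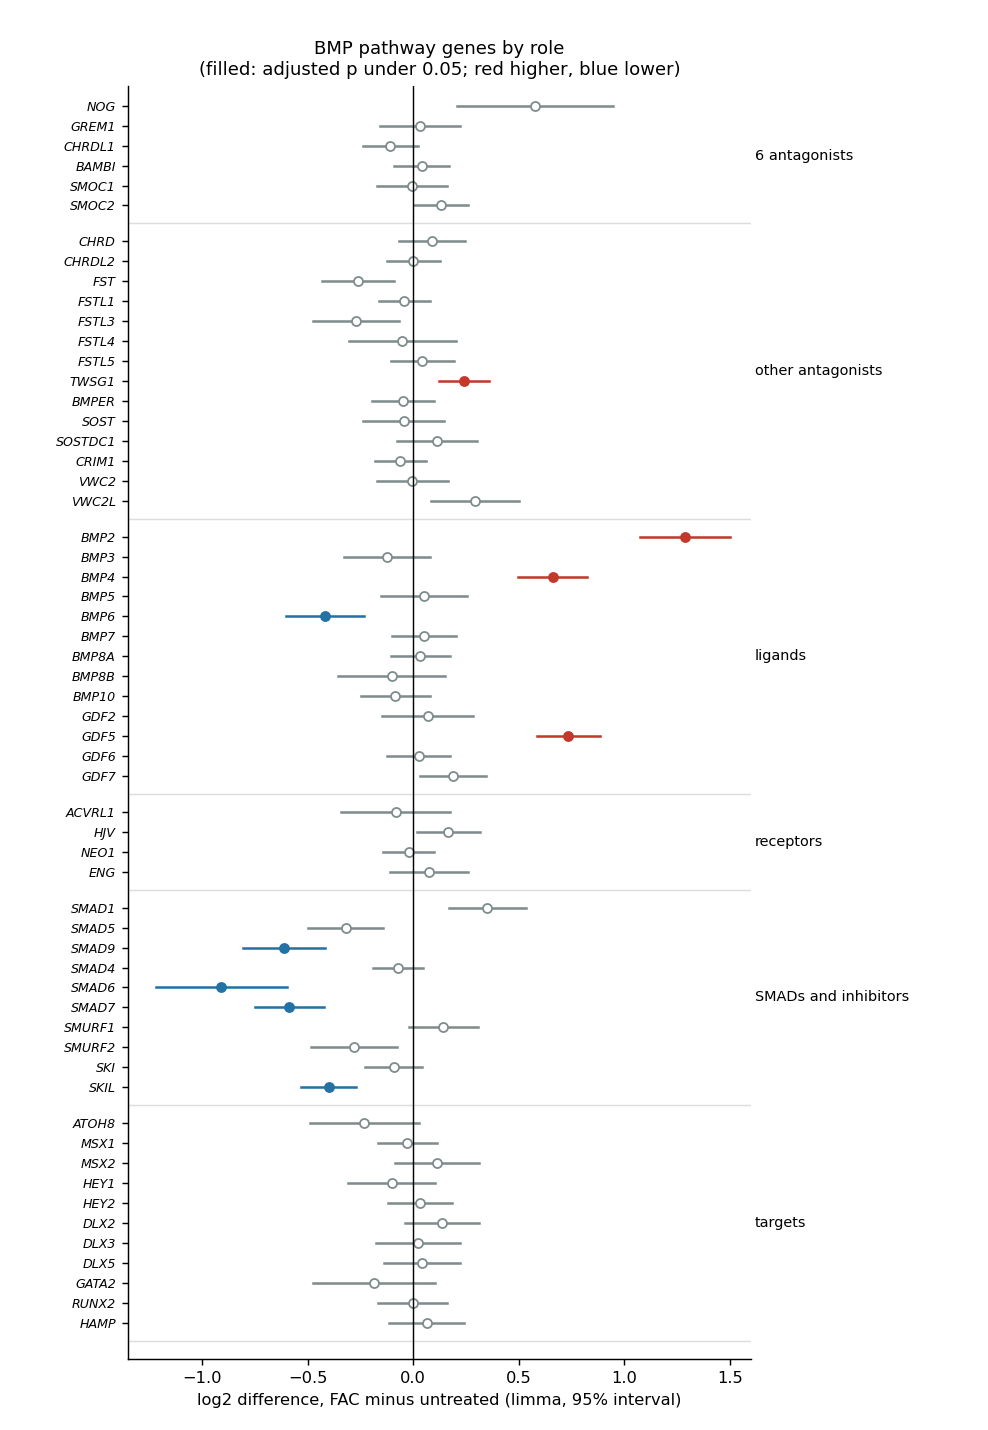
Difference on the log2 scale, FAC minus untreated (horizontal axis), with limma's 95% interval for the measured BMP pathway genes grouped by role, each gene drawn once. Filled points passed the test: TWSG1 of the other antagonists, BMP2, BMP4, GDF5 and BMP6 of the ligands, and SMAD9, SMAD6, SMAD7 and SKIL, while all 6 antagonists at the top are open.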

How the data were processed

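RNA of 6 ARPE-19 cultures was measured on 1 array each. The authors deposited 1 table of log2 values for 53617 probes. The scale was read from its range (2.41 to 14.22), and the submitters' processing notes list RMA and Partek 6.6, giving neither order nor role. Detection calls, scan batches and depth are not given in the sources used here, so the number of arrays limits the precision. Named probes are the 16098 to which the platform annotation gives exactly 1 gene symbol, covering 14884 genes. Probes with several symbols or none were left out, so a gene without a named probe may still share a probe with others. For 779 genes with several named probes the one with the highest mean was taken. All named probes were found in the RefSeq gene table by gene ID. The test was limma's moderated one (version 3.58.1, R 4.3.3, default eBayes, 2-sided, Benjamini-Hochberg over all genes), checked on simulated data. The simulation drew from the variance model of the same fit. It therefore checked the code and not whether that model holds for these arrays. The median SE was 0.07.

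The 6 genes, the pathway lists and the tests were chosen with earlier results of these data known. From each pathway list up to 4 genes past the threshold were named, or else the 2 with the smallest p, besides BMP2, BMP4, BMP6, SMAD6 and SMAD7. FST, SMAD1, SMAD5, the second GDF5 probe, the BAMBI and SMAD6 sequences, the marker genes and the genes resembling NOG were chosen after the values were seen. Alternatives were a filter on dim genes, 2 normalizations, a trended robust prior, array weights, averaged probes, all probes, a replicate block and leaving out each array.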

Additional observations from a re-analysis of the deposited data

How the results depend on the processing

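The difference in NOG was above 0 in all 14 alternative fits (0.47 to 0.79, limma adjusted p between 0.00338 and 0.273). This sign was fixed beforehand in most of them and is no support. The filter on dim genes, the prior and the balanced block leave a gene's difference unchanged, and NOG has only 1 named probe to average or choose. Groups that do not overlap keep their sign when 1 array is left out. NOG passed without untreated replicate 2 (0.79) and with an intensity trend and robust prior (0.58, adjusted p = 0.027). The count of antagonists that passed was therefore 1 in those fits and 0 in the other 12. The cause of the second was not tested. Without any 1 array it was 0 to 1. BAMBI, CHRDL1 and SMOC2 kept their direction and did not pass in any alternative that held them. For them too the direction was fixed beforehand in many of these fits. For CHRDL1 and SMOC2, whose groups did not overlap, that includes leaving out any 1 array. GREM1 and SMOC2 were among the genes removed by the filter on dim genes and had no value there. Leaving out 1 array gave -0.051 to 0.104 for GREM1, negative without FAC replicate 3, and -0.070 to 0.044 for SMOC1, positive without untreated replicate 1 or FAC replicate 1 or 2. The 555 genes that passed overall became 840 with the filter on dim genes, 1026 with the trended robust prior, 254 with every probe tested and 147 to 447 without 1 array. Whether the replicate numbers pair the cultures is not stated. Deviations of same-numbered arrays from their group means correlated over all genes with r of -0.02, -0.03 and -0.15. Those of unlike-numbered arrays gave -0.096 to 0.126. The deviations within a group are tied to each other by its mean, so these values cannot decide it. With the replicate number as a block 184 genes passed, none of the 6 antagonists among them, and NOG kept 0.58 (adjusted p = 0.114).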

Other observations

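Among named genes of at least median level, those whose values followed NOG most closely over the 6 arrays were NEIL3, HNRNPUL1 and PDP1, with Pearson's r of 0.990, 0.990 and 0.986. This is a description of 6 arrays in 2 groups, chosen out of all genes by the likeness itself. NEIL3, which encodes a DNA glycosylase, measured 7.56, 7.50 and 7.54 with FAC, against 7.09, 7.40 and 7.06 in untreated replicates 1, 2 and 3 (0.35 ± 0.09 SE, limma adjusted p = 0.0892). PDP1, the gene of a pyruvate dehydrogenase phosphatase, measured 7.95, 7.92 and 7.92 with FAC, against 7.56, 7.82 and 7.61 without (0.27 ± 0.07 SE, limma adjusted p = 0.106). In NEIL3, PDP1 and HNRNPUL1, as in NOG, untreated replicate 2 lay between the FAC arrays and the other untreated arrays. Choosing genes by likeness to NOG brings this pattern with it. HNRNPUL1 had a far smaller difference (0.05 ± 0.05 SE, limma adjusted p = 0.660).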
